A study of Gallus gallus with 2 samples.

Results

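Runs of closely spaced CTCF peaks were described in chicken red blood cells labelled 10 days and 5 days old. A run was a set of neighbouring peaks of the same list in which each start lay under 2000 bp from the next. Rows on random sequence, on the E linkage groups and on mitochondrial DNA were left out, which kept the numbered chromosomes and Z. The 10 day list held 2379 peaks in 1091 runs, out of 20211 peaks on these chromosomes. The 5 day list held 574 peaks in 233 runs, out of 5120. Together the runs took in 2953 of the 27188 deposited peaks. The members were thus chosen by the start positions of the listed peaks, and the number of runs, their length and their steps are given as descriptions and carry no test.

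Chromatin from *Gallus gallus* red blood cells was precipitated with an anti-CTCF antibody (Millipore) and sequenced on an Illumina Genome Analyzer, with 1 library for the 10 day cells and 1 for the 5 day cells. The growth and treatment fields, the same for both libraries, instead describe mononuclear blood cells taken from a density gradient and stimulated with PMA and Io. The sources used here do not give strain, sex, genotype, the number of animals, or whether the days run from laying or from hatching. No replicate measures the spread between animals at either age, so no test compares the ages. The 95% intervals below are exact Clopper-Pearson intervals that cover counting error within a list, with each peak or run taken as independent. Peaks enter a run together with their neighbours, so the intervals for shares of peaks are likely too narrow.

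Each row of a list is a peak 399 bp wide with a whole-number score from the authors. What the score measures is not given, so it is used to describe peaks inside their own list and never to set a level at 10 days against a level at 5 days. Read totals are not known either. Positions are counted from 1 and belong to a genome build that the sources used here do not name, so the runs are given by coordinates and not by genes, and no sequence is shown.

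CTCF contacts a long DNA motif through several of its zinc fingers. It marks insulators and holds the bases of many chromatin loops, where it works together with cohesin. The insulator upstream of the chicken beta-globin genes, studied in red cells, is a classic CTCF element. Neighbouring CTCF sites are known from other loci, such as the imprinting control regions of mammals, where an array of sites acts as an insulator. A run here is a property of a peak list, and whether each of its peaks holds a motif was not analysed here.

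Most runs were short. At 10 days 965 of the 1091 runs (88.5%, 95% interval 86.4 to 90.3) held 2 peaks, 95 held 3 and 31 held at least 4. At 5 days 191 of the 233 runs (82.0%, 76.4 to 86.7) held 2 peaks, 20 held 3 and 22 held at least 4. The long runs made up more of the 5 day set: 6.89% of the 10 day run peaks (5.91 to 7.99) and 23.0% of the 5 day run peaks (19.6 to 26.7) were in runs of at least 4. These peaks came from only 31 and 22 runs, so both intervals are likely too narrow. The lists also differ in length, and whether the ages differ in this was not tested. The longest run had 11 peaks at 10 days and 16 at 5 days. The median run spanned 1507 bp at 10 days (interquartile range 1055 to 2000) and 1497 bp at 5 days (1030 to 2092).

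Steps between neighbouring starts had a median of 994 bp at 10 days (interquartile range 603 to 1451, 1288 steps) and 857 bp at 5 days (555 to 1313, 341 steps). The smallest step was 227 bp at 10 days and 228 bp at 5 days. A step under 399 bp means that both listed peaks overlap each other, which was the case for 101 of the 1288 steps at 10 days (7.84%, 6.43 to 9.45) and for 34 of the 341 at 5 days (9.97%, 7.00 to 13.7). Steps under 1000 bp made up 50.3% at 10 days (47.5 to 53.1) and 59.8% at 5 days (54.4 to 65.1).

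**Figure D1:**
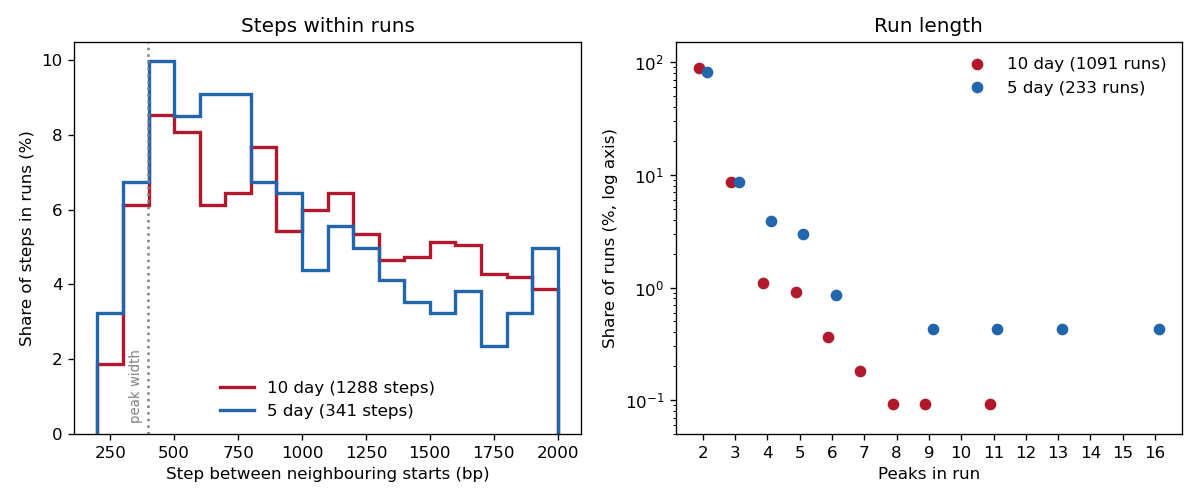
Left, share of steps within runs (%) by step length (bp, bins of 100 bp) at 10 days (1288 steps) and 5 days (341 steps), with the 399 bp peak width dotted. Right, share of runs (%, log axis) by number of peaks; runs of 2 peaks make up 88.5% at 10 days and 82.0% at 5 days, and the longest have 11 and 16 peaks.

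The limit of 2000 bp does not fall into a gap in the data. At 10 days 50 steps were 1900 to under 2000 bp and 70 were 2000 to under 2100 bp. The 90 peaks just inside the limit, whose nearest start was 1900 to under 2000 bp away, scored a median of 25, and the 124 just outside a median of 24. At 5 days 17 steps lay just inside and 14 just outside, and the median scores were 24 over the 29 peaks inside and 20 over the 23 outside. Peaks outside runs were mostly far from any other: their nearest start was a median of 17333.5 bp away at 10 days and 35610 bp away at 5 days.

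Run peaks had nearly the same median score as the peaks outside runs of their list, and a larger share of scores of at least 100. The 10 day medians were 26 for run peaks (interquartile range 23 to 31) and 25 for peaks outside runs (23 to 28). The 5 day medians were 23 (16 to 37) and 22 (15 to 37). Over the whole lists 5.89% of 10 day peaks and 13.7% of 5 day peaks scored at least 50. Of 10 day peaks, 10.5% of those in runs (9.30 to 11.8) and 5.27% of peaks outside runs (4.95 to 5.61) did so. Among 5 day peaks the shares were 15.0% of run peaks (12.2 to 18.2) and 13.6% of peaks outside runs (12.6 to 14.6), with intervals that overlap. Without a stretch of chromosome 1 described below, the 5 day shares were 13.2% (10.5 to 16.4) and 13.5% (12.5 to 14.5). The 10 day shares were then 9.61% (8.45 to 10.9) and 5.26% (4.93 to 5.59).

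A score of at least 100 was reached by 73 of the 2379 run peaks at 10 days (3.07%, 2.41 to 3.84) and by 166 of the 17832 peaks outside runs (0.931%, 0.795 to 1.08). At 5 days it was reached by 14 of 574 run peaks (2.44%, 1.34 to 4.06) and 42 of 4546 peaks outside runs (0.924%, 0.667 to 1.25). Part of this comes from a single stretch of chromosome 1, described below. Without it the shares of run peaks were 2.38% at 10 days (1.80 to 3.08) and 1.81% at 5 days (0.874 to 3.31), against 0.914% (0.780 to 1.07) and 0.881% (0.630 to 1.20) of the peaks outside runs. At 5 days these last intervals overlap.

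Scores were also set out by run length. The 10 day medians were 25 in runs of 2, 27 in runs of 3 and 35 in runs of at least 4 (median intervals 25 to 25, 26 to 28 and 30 to 40). In the same order the 5 day medians were 24, 20 and 22.5 (22 to 26, 17 to 24 and 19 to 26). In the longest class 34.8% of the 10 day peaks (27.5 to 42.6) and 13.6% of the 5 day peaks (8.29 to 20.7) scored at least 50. The longest class was thus the highest scoring at 10 days, while its 5 day interval overlapped those of the shorter runs. It includes 2 runs of the chromosome 1 stretch at each age, whose 10 day peaks all scored at least 50. The scores of this class were not set out without them. Whether the ages differ in this was not tested.

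Inside a run the second highest score was set against the highest. The second highest score was a median of 85.7% of the highest over the 1091 runs at 10 days (interquartile range 72.0 to 95.7), and 62.5% over the 233 runs at 5 days (40.6 to 80.0). The lower limit of each list bears on this, since the lowest score was 22 at 10 days and 13 at 5 days, and the median score of the highest peak in a run was 29 at 10 days and 35 at 5 days. A ratio cannot fall below the lowest score of the list over the highest of the run, so the 2 medians are not a like comparison of the ages. The part of the lower limit was not tested. Among runs with a peak of at least 50, a second such peak was present in 43 of 182 at 10 days (23.6%, 17.7 to 30.5) and in 11 of 67 at 5 days (16.4%, 8.49 to 27.5). In runs of 2 peaks the left and right scores had a Spearman correlation of 0.19 over 965 runs at 10 days and -0.04 over 191 runs at 5 days, as a description of neighbours from the same library. The highest peak lay at an end of the run in 68 of 126 runs of at least 3 peaks at 10 days and in 23 of 42 at 5 days. At 10 days 95 of these runs had 3 peaks, of which 2 are ends, and tied scores were taken at the first peak. The shares are thus not read as a leaning to the ends.

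Whether the other age also held a run varied with run length in both lists. A 10 day run was overlapped by a 5 day run in 117 of 1091 cases (10.7%, 8.95 to 12.7), by 5 day peaks outside runs alone in 216 cases (19.8%, 17.5 to 22.3) and by no 5 day peak in 758 cases (69.5%, 66.6 to 72.2). A 5 day run was overlapped by a 10 day run in 117 of 233 cases (50.2%, 43.6 to 56.8), by 10 day peaks outside runs alone in 90 cases (38.6%, 32.3 to 45.2) and by no 10 day peak in 26 cases (11.2%, 7.42 to 15.9). The lists differ in length, with 20211 peaks at 10 days and 5120 at 5 days, and the part of length in these shares was not tested on its own. When the 10 day list was limited to its highest scores, with no more peaks than the 5 day list, 55.0% of its runs were overlapped by a 5 day run and 35.2% of the 5 day runs by one of its runs. That limit changed the scores with the length: the median score of its run peaks was 46, against 26 in the whole 10 day list.

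By length, 66 of 965 10 day runs of 2 peaks (6.84%, 5.33 to 8.62), 28 of 95 runs of 3 (29.5%, 20.6 to 39.7) and 23 of 31 runs of at least 4 (74.2%, 55.4 to 88.1) were overlapped by a 5 day run. Of the 5 day runs, 85 of 191 with 2 peaks (44.5%, 37.3 to 51.9), 15 of 20 with 3 (75.0%, 50.9 to 91.3) and 17 of 22 with at least 4 (77.3%, 54.6 to 92.2) were overlapped by a 10 day run. A run with more peaks has more positions at which an overlap can fall, so the rise with length was partly fixed in advance. Span moved with this: it had a median of 1826 bp in 10 day runs overlapped by a 5 day run and of 1475 bp in those with no 5 day peak, and its part in the shares was not tested. Scores at 10 days also moved with length. A 5 day run overlapped 48.4% of 10 day runs with a top score of at least 50 and 3.19% of the others. The part of score was not tested. At 10 days 3 of the 31 runs of at least 4 peaks lacked a 5 day peak. At 5 days none of the 22 lacked a 10 day peak, and the interval of that share reaches up to 15.4%.

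**Figure D2:**
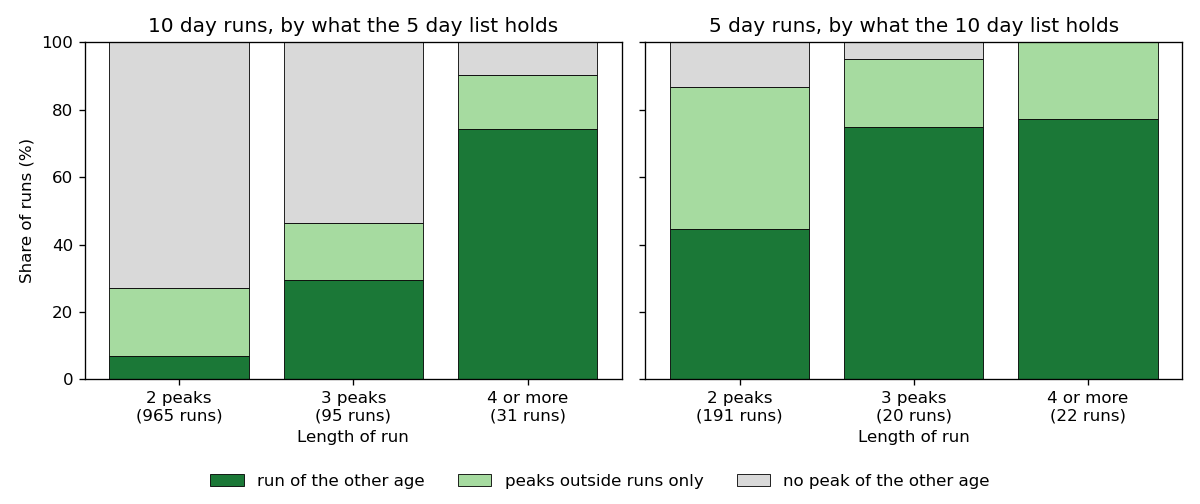
Share of 10 day runs (left, 1091 runs) and 5 day runs (right, 233 runs), by run length, whose span is overlapped by a run of the other age, only by peaks outside runs of the other age, or by no peak. Runs of 2 peaks at 10 days mostly lack a 5 day peak (73.0%), while 74.2% of runs of at least 4 overlap a 5 day run. Over all 10 day peaks, 14.2% are overlapped by a 5 day peak, so most single peaks also lack one. A longer run has more positions at which an overlap can fall.

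Runs without a counterpart had low scores. The highest peak of a 10 day run reached a median of 71 where a 5 day run overlapped it (quartiles 50 and 99), 44 where 5 day peaks outside runs did (32 to 69.2) and 27 where there was no 5 day peak (24 to 30). No 10 day run of the last kind scored above 58. At 5 days the medians were 39, 38 and 18.5, and the highest score among runs with no 10 day peak was 53. Of the 182 10 day runs with a peak of at least 50, 88 were overlapped by a 5 day run, 91 by 5 day peaks outside runs and 3 by none. Overlap moved with score outside runs too, so this is not particular to runs. Of 10 day peaks outside runs, 97.4% of those scoring at least 50 were overlapped by a 5 day peak (96.2 to 98.4). The share was 2.79% of those scoring 22 to 24 (2.45 to 3.16).

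Peak by peak, 14.2% of all 10 day peaks on these chromosomes were overlapped by a 5 day peak, and 55.9% of all 5 day peaks by a 10 day peak. Among 10 day peaks the share was 521 of 2379 run peaks (21.9%, 20.3 to 23.6) and 2350 of 17832 peaks outside runs (13.2%, 12.7 to 13.7). Among 5 day peaks it was 387 of 574 run peaks (67.4%, 63.4 to 71.2) and 2477 of 4546 peaks outside runs (54.5%, 53.0 to 55.9). A single peak of the other age can count for neighbouring run peaks. The higher shares in runs were thus partly fixed in advance, also within the score bands below. With an overlap of at least 50%, the 5 day shares were 57.1% in runs (53.0 to 61.2) and 53.8% outside (52.3 to 55.3). The 10 day shares were then 19.2% (17.6 to 20.9) and 13.0% (12.5 to 13.5). The scores of the 2 sets differ, so the shares were also set out by score band. At 10 days, 6.17% of run peaks scoring 22 to 24 (4.74 to 7.87) and 2.79% of peaks outside runs with those scores (2.45 to 3.16) were overlapped. At 5 days, 47.1% of run peaks scoring 13 to 19 (40.4 to 53.9) and 26.4% of the others (24.4 to 28.4) were overlapped. In the middle bands run peaks also had the higher shares, with intervals that overlap in each of them. For scores of 30 to 49 the shares were 35.3% of run peaks and 29.75% of the others at 10 days, and 87.3% and 80.5% at 5 days. From 25 to 29 they were 9.33% and 6.61% at 10 days, and from 20 to 29 they were 66.9% and 59.5% at 5 days. From a score of 50 upward the shares were 93.6% of run peaks (89.8 to 96.3) and 97.4% of the others (96.2 to 98.4) at 10 days. At 5 days they were 94.2% (87.0 to 98.1) and 94.6% (92.6 to 96.3). The shares outside runs were then weighted by the number of run peaks in each band, a step chosen after the values were seen. This gave 19.1% at 10 days and 56.1% at 5 days, beside 21.9% and 67.4% of the run peaks. Run peaks were also split by distance to the nearest start. At 10 days 27.4% of those under the peak width and 24.6% from there to under 1000 bp were overlapped. From 1000 to under 2000 bp the share was 18.5% (16.2 to 20.8), an interval that includes the weighted 19.1%. At 5 days the shares were 70.6%, 67.8% and 65.9% (59.1 to 72.2), the last above the weighted 56.1%. These groups were not weighted by score, and the part of spacing was not tested.

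A counterpart that itself lay in a run was found for 277 of the 2379 run peaks at 10 days (11.6%, 10.4 to 13.0) and for 273 of the 574 at 5 days (47.6%, 43.4 to 51.7), beside 1.84% and 9.65% of all peaks of these lists. At 10 days the share was 0.527% of peaks outside runs (0.426 to 0.645). Counterparts of neighbouring run peaks can start under 2000 bp apart and then form a run by the same rule. The higher shares of run peaks were thus partly fixed in advance and are given as a description.

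**Figure D3:**
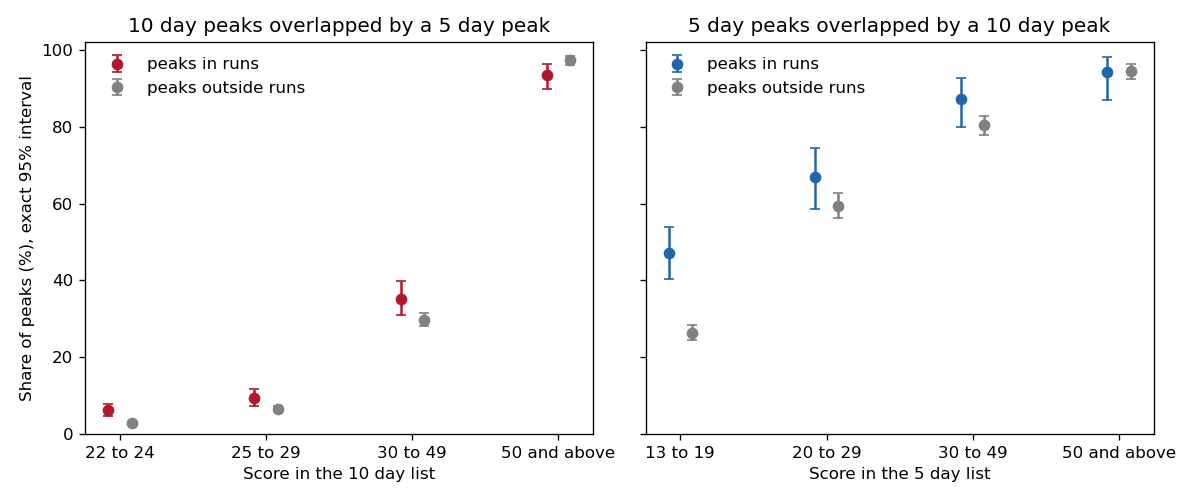
Share of 10 day peaks overlapped by a 5 day peak (left) and of 5 day peaks overlapped by a 10 day peak (right), in %, by score band of the own list, for peaks in runs (coloured) and outside runs (grey); bars are exact 95% intervals. Run peaks lie above the others in the lowest band at both ages (6.17% and 2.79% at 10 days, 47.1% and 26.4% at 5 days). A single peak of the other age can count for neighbouring run peaks.

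A counterpart of a run peak could also be another member of the run, so positions were compared. Overlapped run peaks started a median of 54 bp from the nearest 5 day start at 10 days (interquartile range 16 to 116), while overlapped peaks outside runs started 37 bp away (16 to 66). For 5 day peaks the medians were 60 bp (18.5 to 142) in runs and 37 bp (16 to 66) outside runs. Starts within 20 bp of each other were found for 27.3% of the overlapped 10 day run peaks (23.5 to 31.3) and 31.4% of the overlapped peaks outside runs (29.5 to 33.3). The upper quartile of the offsets was thus longer in runs, while the lower quartiles were 16 bp in both sets at 10 days.

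The 117 runs of each age formed 119 overlapping combinations, since some runs met more than 1 run of the other age. Equal numbers of peaks were found in 70 of them, more peaks at 10 days in 36 and more at 5 days in 13. In 56 combinations both runs had 2 peaks and both peaks could be paired by position. The same peak of these was the higher scoring at both ages in 40 (71.4%, 57.8 to 82.7). Over all 261 peaks paired in this way, the scores of the 2 lists had a Spearman correlation of 0.51, as a description over positions that share libraries and runs.

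The largest accumulation of runs lay on chromosome 1. Joining runs less than 10 kb apart, a step chosen after the values were seen, gave a 10 day group of 7 runs with 27 peaks between 104451520 and 104504675. With the peaks between the runs, this stretch of 53156 bp held 31 peaks at 10 days and 29 at 5 days, of which 26 and 27 were overlapped by a peak of the other age. Scores had a median of 152 at 10 days (29 to 689) and 51 at 5 days (16 to 265). Of the 73 run peaks scoring at least 100 at 10 days 17 lay here, and of the 14 at 5 days 4.

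The longest 10 day run was in this stretch, with 11 peaks from 104464168 to 104473471. In order of position its scores were 118, 244, 230, 212, 58, 376, 121, 426, 145, 152 and 66. The 5 day run over it had 13 peaks from 104464173 to 104473472, with scores of 51, 85, 75, 57, 26, 96, 31, 46, 135, 16, 43, 39 and 76. All 11 of the 10 day peaks were paired with a 5 day peak, 9 of them with starts within 20 bp, and the highest peaks of both runs were paired. The scores of the paired peaks had a Spearman correlation of 0.72 over 11 positions.

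Both ages also had a run of 5 peaks next to it. At 10 days it reached from 104457507 to 104462096 with scores of 202, 670, 191, 476 and 88. At 5 days it reached from 104457330 to 104462091 with scores of 48, 265, 87, 128 and 50. The second peak was the highest and the fourth the next highest at both ages. The third 10 day peak and the third 5 day peak had the identical start of 104459836. A further 10 day run from 104482937 to 104484406 scored 58 and 596, and the 5 day peaks over it scored 27 and 192. At the edge of the stretch, the 10 day peaks at 104451520 and 104452404 scored 545 and 581 and the only 5 day peak lay between them, with a score of 132. It overlapped neither.

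**Figure D4:**
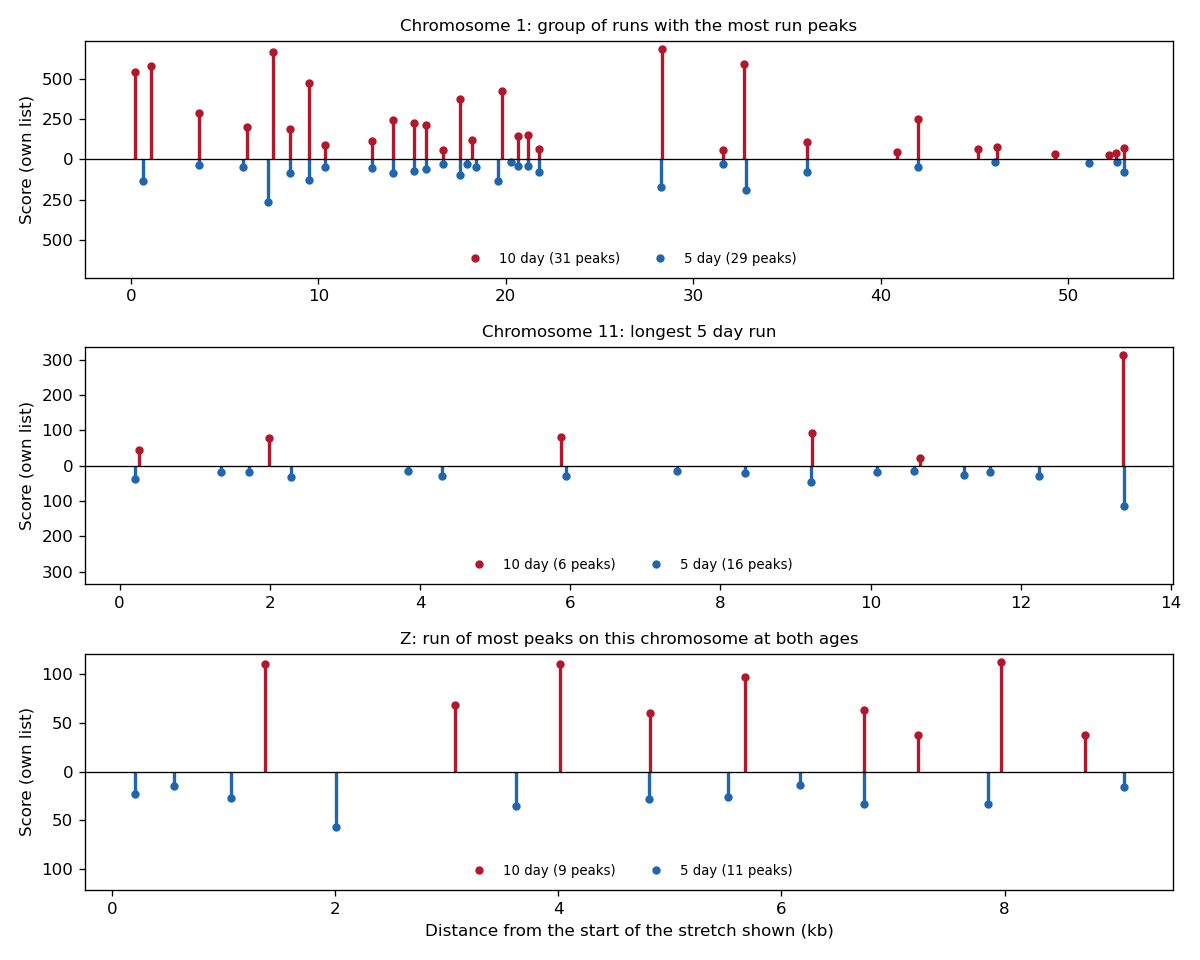
Scores of every peak (vertical axis, each list on its own score; 10 day upward in red, 5 day downward in blue) against distance from the start of the stretch (kb), for the chromosome 1 stretch (31 and 29 peaks), the longest 5 day run on chromosome 11 (6 and 16 peaks) and the Z run (9 and 11 peaks). On chromosome 11 each of the 6 peaks at 10 days stands over a 5 day peak, while 9 of the 16 peaks at 5 days have none above them.

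The longest 5 day run lay on chromosome 11 from 2674272 to 2687838 and had 16 peaks. In order of position its scores were 37, 19, 17, 33, 16, 29, 30, 16, 22, 46, 19, 15, 27, 17, 29 and 113. The 10 day list held 6 peaks there, with scores of 43, 79, 80, 92, 22 and 313, and 7 of the 5 day peaks were overlapped by them. The last peak was the highest at both ages, and its starts were at 2687431 at 10 days and 2687440 at 5 days. The 9 peaks at 5 days without a counterpart scored at most 29.

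On Z the longest runs of the 2 ages overlapped. The 10 day run had 9 peaks from 63888929 to 63896672, with scores of 111, 69, 111, 60, 97, 63, 38, 113 and 38. The 5 day run had 11 peaks from 63887756 to 63897022, with scores of 23, 15, 27, 57, 35, 28, 26, 14, 33, 33 and 16. Of these, 7 at 10 days and 7 at 5 days were overlapped. The highest 5 day peak, at 63889566 with a score of 57, was not among them. A second Z stretch had a 10 day run of 7 peaks from 66282516 to 66288358 (scores 24 to 72) with 6 peaks at 5 days in its span (14 to 30). Near it a 5 day run of 9 peaks from 66290634 to 66296602 (scores 14 to 33) had 5 peaks at 10 days in its span (31 to 111).

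A Z run of 4 peaks was among the 3 most evenly spaced of both lists. At 10 days its peaks, from 27927982 to 27931658, scored 35, 547, 536 and 40 with steps of 1035, 997 and 1246 bp. At 5 days they scored 16, 185, 209 and 13 with steps of 1030, 919 and 1338 bp. The inner peaks were the high ones in both lists, though not in the same order. The most even 10 day run lay on chromosome 6 from 37392834 to 37394659, with steps of 463, 492 and 472 bp and scores of 24, 38, 62 and 47. The 5 day list had 2 peaks there, with scores of 53 and 25. On chromosome 2 a 10 day run from 108635022 to 108637210 had steps from 409 to 699 bp and scores from 25 to 81, over 3 peaks at 5 days scoring 15 to 21. The most even 5 day run, on chromosome 4 from 45500876 to 45504043, had steps from 808 to 1007 bp and scores from 14 to 23. It had 2 peaks at 10 days in its span, with scores of 22 and 90. On chromosome 12 a 5 day run from 2565819 to 2568961 had steps from 799 to 1142 bp and scores from 20 to 45. It lay over part of a 10 day run of 8 peaks from 2566904 to 2574587, which scored 112, 72, 55, 25, 55, 31, 23 and 66.

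The remaining long runs differed in their scores. On chromosome 15 a 10 day run of 7 peaks from 11136554 to 11144260 scored 24 to 32 throughout, beside a list median of 25, and the 5 day peaks in its span scored 13 and 14. On chromosome 5 a 5 day run of 6 peaks from 57497565 to 57505649 scored 66, 98, 33, 27, 26 and 27, all above the list median of 22. It had 4 peaks at 10 days in its span (31 to 169). Among runs with no run of the other age, the longest at 10 days had 5 peaks on chromosome 1 from 199649566 to 199653825 (scores 26 to 55), over 2 peaks at 5 days (20 and 22). Runs of 4 peaks followed on chromosome 2 from 109003173 to 109005625 (23 to 113) and on chromosome 1 from 127994876 to 127997960 (25 to 37), each over 1 peak at 5 days (30 and 16). The longest such 5 day runs had 5 peaks on chromosome 3 from 43654540 to 43658886, scoring 18, 29, 21, 32 and 38, and 5 on chromosome 7 from 4545111 to 4548538, scoring 14 to 17. At 10 days the chromosome 3 span held 2 peaks, scoring 59 and 93, and the chromosome 7 span held 1, scoring 32. A 5 day run of 4 peaks on chromosome 14 from 15597272 to 15600327 (13 to 27) had 2 peaks at 10 days (38 and 49).

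The runs with the highest scores differed in how many further high peaks they held. The highest score in any 10 day run was 816, on chromosome 1 from 146893043 to 146895496, beside peaks of 23 and 38. The 5 day list had 1 peak there, at the identical start of 146895098, with a score of 198. The next 10 day run scores, 670 and 596, belonged to the chromosome 1 stretch above, where the second highest peaks of the same runs scored 476 and 58. The highest 5 day run score was 346, on chromosome 13 from 18869456 to 18870580, beside a peak of 16, where the 10 day list had 1 peak of 350. Next at 5 days came chromosome 4 from 25989957 to 25991303, with scores of 268 and 36, where 2 peaks at 10 days scored 441 and 193. The third was a run of the chromosome 1 stretch, given above with all its peaks, whose highest scores were 265 and 128.

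Other runs were named for the highest scores among those with no run of the other age. At 10 days these were the runs with the 816 peak and with the 545 and 581 peaks, and 1 on chromosome 14 from 15052280 to 15053748, which scored 28 and 351 over a 5 day peak of 117. At 5 days they were the run with the 346 peak and 2 others. On chromosome 21 from 3007841 to 3008535 the 5 day peaks scored 177 and 14 with a step of 296 bp, so that they overlapped each other, and the 10 day list had 1 peak of 134. On chromosome 18 from 8910477 to 8912105 the 5 day peaks scored 114 and 19, and the 10 day list had 1 peak of 95.

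By chromosome class, runs took a larger share of the peaks on small chromosomes at 10 days, and on Z at 5 days. Over all chromosomes, runs held 11.8% of peaks at 10 days and 11.2% at 5 days. At 10 days the shares were 16.6% on microchromosomes, here 11 and above (15.6 to 17.7), 10.95% on chromosomes 6 to 10 (9.90 to 12.1), 9.72% on chromosomes 1 to 5 (9.17 to 10.3) and 12.9% on Z (10.9 to 15.1). At 5 days they were 11.3% (9.90 to 12.8), 10.2% (8.27 to 12.4), 9.38% (8.17 to 10.7) and 27.6% (22.4 to 33.2). Peak density moved with the shares on the numbered chromosomes and not on Z. Up to the last listed peak the 10 day list had 28.3 peaks per Mb on microchromosomes, 21.0 on chromosomes 6 to 10, 17.6 on chromosomes 1 to 5 and 13.3 on Z. The 5 day list had 10.6, 5.65, 3.37 and 3.74 per Mb in the same order. The part of density in the shares was not tested. Single chromosomes reached higher shares, on few peaks. At 10 days the highest were 38.5% on chromosome 16 (13.9 to 68.4, 5 of 13 peaks) and 27.3% on chromosome 27 (20.2 to 35.3). At 5 days chromosome 25 (35.1%, 20.2 to 52.5, 13 of 37 peaks) and chromosome 16 (33.3%, 4.33 to 77.7, 2 of 6) stood above Z, with wide intervals. The lowest 10 day share was 8.97% on chromosome 2 (7.89 to 10.1). The lowest 5 day share was 1.98% on chromosome 17 (0.241 to 6.97), where 2 of 101 peaks were in a run.

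On Z the 5 day share rested largely on long runs. Of the 77 run peaks on Z at 5 days 43 belonged to 7 runs of at least 4 peaks. With the peaks of such runs set aside on every chromosome, 14.4% of the remaining 5 day Z peaks (10.2 to 19.6) were in runs, against 7.54% on chromosomes 1 to 5 (6.44 to 8.76). Chromosomes 1 to 5 were the class with the lowest share of peaks in runs at both ages. The other classes are not set beside Z here at 5 days. At 10 days the same step gave 9.80% on Z (7.99 to 11.9) and 9.09% on chromosomes 1 to 5 (8.55 to 9.64). It gave 10.7% on chromosomes 6 to 10 (9.66 to 11.8) and 15.9% on microchromosomes (14.9 to 16.9). Of the 49 runs on Z at 10 days 17 were overlapped by a 5 day run (34.7%, 21.7 to 49.6), and of the 22 at 5 days 16 were overlapped by a 10 day run (72.7%, 49.8 to 89.3). Over all runs the shares were 10.7% at 10 days (8.95 to 12.7) and 50.2% at 5 days (43.6 to 56.8). The 5 day intervals overlap. Z held 6 of the 31 runs of at least 4 peaks at 10 days, and the part of run length and score in its shares was not tested. On Z the median 10 day score was 32 in runs (quartiles 24 and 52.2) and 24 outside them (23 and 28), and the median 5 day score was 21 in runs and 20 outside.

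**Figure D5:**
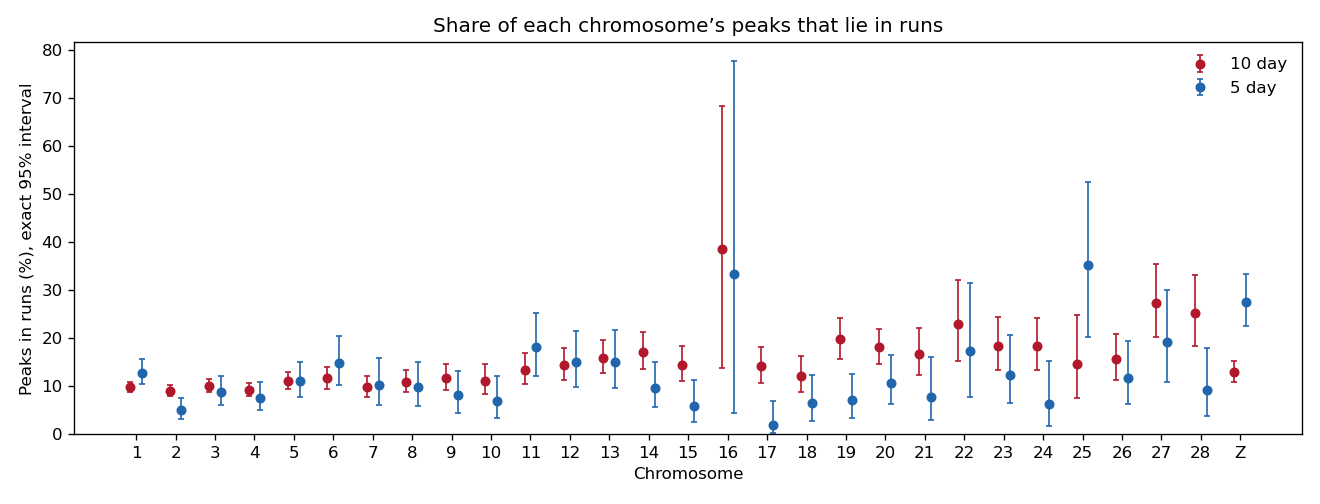
Share of the peaks of each chromosome (%) that lie in runs, at 10 days (red) and 5 days (blue); bars are exact 95% intervals and are widest on chromosome 16, with 13 and 6 peaks. Z stands at 12.9% at 10 days and 27.6% at 5 days.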

How the data were processed

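CTCF chromatin immunoprecipitation was sequenced from 1 library per age, per the labels' protocols. The authors deposited a peak list for each library, with 6 columns and no header. The score of a peak is the authors' own deposited value, and its meaning is not given. The aligner, peak caller, threshold, control library, genome build and read depth are not given in these sources. The gene table at hand was not used, since the build of the peak positions is not named.

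Peaks were sorted by start and joined into runs. An overlap needed at least 1 bp, of spans for runs and of peaks for peaks. Shares have Clopper-Pearson intervals, and medians have intervals from order statistics. The runs named are, in each list, the 5 with the most peaks, the 3 with the highest score, the 3 longest and 3 highest with no run of the other age, and the 3 of at least 4 peaks with the most even steps. The members and rules were chosen with earlier results of these data known. The functions were tested on simulated lists. Intervals came from scipy 1.17.1 and figures from matplotlib 3.10.9, under Python 3.11.15 with pandas 2.3.3 and numpy 2.4.6.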

Additional observations from a re-analysis of the deposited data

Results flagged for a closer look

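The rows left out by sequence name (random and unplaced sequence, the E linkage groups and mitochondrial DNA) held runs too. There were 335 run peaks among 1147 such rows at 10 days (29.2%, 95% interval 26.6 to 31.9) and 226 among 710 at 5 days (31.8%, 28.4 to 35.4). At 10 days 54.9% of these run peaks (49.4 to 60.3) and 39.0% of the other left-out peaks were overlapped by a 5 day peak. At 5 days 71.2% (64.9 to 77.0) and 68.8% were overlapped by a 10 day peak.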

How the results depend on the processing

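Of 64 alternatives, 26 moved a value out of its interval, or a count by over 1.5 times. Limiting starts to under 1000 bp gave 1241 run peaks at 10 days and 360 at 5 days, and under 5000 bp 4897 and 932. The first had 25.1% of 10 day run peaks overlapped by a 5 day peak and 40.4% of 5 day runs by a 10 day run, and the second 17.6% of 10 day run peaks. With all rows kept, 13.8% of 10 day runs and 26.0% of 10 day run peaks were overlapped. Peaks at or above the median score left 940 and 192 run peaks with median scores of 31 and 36. Of these, 25.7% and 81.2% were overlapped, as were 65.0% of the 5 day runs. A 10 day list no longer than the 5 day list had 348 run peaks with a median score of 46. Of these 72.4% were overlapped, and of the 5 day run peaks 56.1%. Of its runs 55.0% were overlapped, and of the 5 day runs 35.2%. An overlap of at least 50% gave 19.2% and 57.1% of run peaks, and widening the peaks of both lists by 500 bp on each side 31.1% and 85.4%. The causes were not tested. In each of these settings the share of overlapped peaks was higher in runs than outside them. This was partly fixed in advance in every setting, since a single peak of the other age can count for neighbouring run peaks. Widening added to it, since a counterpart of a neighbour under 2000 bp away could then also count for a run peak. At 5 days the intervals overlapped under 2 of the settings. With an overlap of at least 50% the 5 day shares were 57.1% in runs (53.0 to 61.2) and 53.8% outside (52.3 to 55.3), and at or above the median score 81.2% (75.0 to 86.5) and 74.1% (72.3 to 75.8). Leaving out the longest runs, or the chromosome 1 stretch (chosen after seeing the data), moved none of these values out of its interval. No paired analysis was possible because neither age has a second library. Unknown depth limits statements on absence.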

Other observations

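Runs less than 10 kb apart formed 40 groups with 90 runs at 10 days and 15 groups with 33 runs at 5 days. After the chromosome 1 stretch, the largest 10 day groups lay on Z, where 4 runs with 15 peaks reached from 66282516 to 66301238 and 3 runs with 11 peaks from 54899556 to 54914316. The 5 day list held 15 and 8 peaks in these spans, all in runs. On chromosome 27 a 10 day group of 2 runs with 9 peaks reached from 27957 to 42974, and the 5 day list had 5 peaks there. On chromosome 19 a 10 day group of 3 runs with 7 peaks from 32247 to 45633 had a top score of 331, and the 2 peaks at 5 days in it were not in runs. At 5 days 2 runs with 9 peaks on chromosome 12 from 2565819 to 2574765 lay over 8 peaks at 10 days. On chromosome 27 a 5 day group of 2 runs with 7 peaks from 957148 to 966074 scored at most 25, and the 10 day list had 4 peaks there.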
